A study of Mus musculus with 8 samples.

Results

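Gamma-delta T cells were picked out of single-cell RNA libraries of T cells sorted from mouse bone marrow. A barcode entered when 200 or more genes were detected and mitochondrial genes took no more than 15% of its UMIs (unique molecular identifiers, each counting 1 captured RNA molecule). It also needed at least 1 UMI of Cd3d, Cd3e and Cd3g together, at least 2 UMIs of Trdc, and no paired TRA and TRB contig in the receptor libraries. The rule found 2198 cells among 55850 barcodes that passed the first filters (3.94%), and 56649 barcodes had been deposited. The choice rests on measured values, so the levels of Trdc and the absence of an alpha-beta receptor in these cells are not findings.

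T cells carry either an alpha-beta or a gamma-delta receptor on the CD3 complex. The delta chain is built from the Trd genes, which lie inside the Tra locus, and some Trav segments can join either chain. The gamma chain is built from clusters of Tcrg segments, each with its own constant gene. In the mouse, gamma-delta T cells mostly leave the thymus already set for an effector program. Type 1 cells are known for the transcription factors T-bet and Eomes, for interferon gamma and for receptors shared with natural killer cells. Type 17 cells are known for Sox13 and Blk, for IL-17, and for the receptors of IL-23 and IL-1. Cells with Vg6 paired to Vd4 arise in the fetal thymus, have a nearly invariant receptor and make IL-17 in barrier tissues.

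All mice were C57BL/6. The Runx1::Runx1t1 group carried Runx1Runx1t1/+ with Mx1-Cre, a Cre driver switched on by interferon, mainly in blood-forming cells, and in the study's methods the control group carried the same allele without Cre, while the labels call the controls wild type. Both groups received Poly(I:C), an inducer of interferon, at 5 mg/kg every other day for 4 injections, and marrow of ilium, femur and fibula was taken 4 weeks after induction. Mice of the groups were sex-matched littermates in each experiment. Each library came from the marrow of 2 mice mixed into 1 pool, with 2 pools per group, and T cells were enriched by depletion and sorted as live CD3+ mCherry- cells. Since mCherry marks cells that express the fusion gene, the sort left such cells out. Ages of the mice are not given in the sources used here. The p-values measure the spread between pools and nothing else.

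Depth was similar across the 4 libraries, at 90958101 to 102883449 UMIs. The gamma-delta cells had median UMI counts of 7062.5 and 7627 in the Runx1::Runx1t1 pools and 6399.5 and 6697 in the control pools. Runx1t1 itself gave only 3 and 1 UMIs in the gamma-delta cells of the Runx1::Runx1t1 pools and 1 and 1 in those of the control pools, which in mCherry- cells checks little. Over all filtered barcodes it gave 114 and 120 UMIs against 16 and 43. Pairs of libraries shared 256 to 306 cell barcodes. Of the gamma-delta barcodes, 131 also occurred in another library, where 2 of them (1 shared barcode) were again gamma-delta cells.

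The members bore gamma and delta receptor RNA that the rule had not asked for. A Trdv or dual Trav/Trdv segment was found in 86.8% of them, a Tcrg V segment in 80.1% and a Tcrg constant gene in 60.3%. Among cells with a TRA and TRB contig pair and no Trdc UMI, a Tcrg constant gene was found in 9.95% and a delta V segment in 16.0%. A UMI of Trac, the alpha constant gene, was found in 61.4% of those cells. It was also found in 749 members (34.1%), and in 37.5% of the members with 4 or more Trdc UMIs. No contig at all was recorded for 1917 members, a TRB contig alone for 270 and a TRA contig alone for 11. The pair rule kept out 454 further barcodes with at least 2 Trdc UMIs, which is 1.21% of the 37473 paired cells.

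The threshold on Trdc sits within a continuous range. Just inside it lay 831 cells with 2 Trdc UMIs, of which 58.5% had a Tcrg constant gene and 84.1% a delta V segment. Just outside lay 1213 cells with 1 Trdc UMI that met every other condition, with 52.4% and 81.6%. Cells with 4 or more UMIs numbered 814, with 63.1% and 89.2%. In B cell-like barcodes, which should lack Trdc (median 3770.5 UMIs), 0 of 62 had 2 Trdc UMIs, which allows a share of up to 4.84%. Intervals and such limits cover counting error only.

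Gamma-delta cells made up a smaller share of the sorted barcodes in both Runx1::Runx1t1 pools. Their number was 346 of 14554 barcodes in Runx1::Runx1t1 pool 1, or 2.38% (95% Wilson interval 2.14 to 2.64), and 254 of 13583 in pool 2, or 1.87% (1.66 to 2.11). In the control group it was 864 of 13481 in pool 1, or 6.41% (6.01 to 6.83), and 734 of 14232 in pool 2, or 5.16% (4.81 to 5.53). The pools of the groups did not overlap, and no pool's interval reached that of the other group. Averaged over pools, the shares were 2.12% ± 0.359 and 5.78% ± 0.885 (SD, n = 2 each). The Runx1::Runx1t1 mean was lower by a factor of 2.72, with an exact permutation p of 0.333 (two-sided), the smallest that 2 pools against 2 can give. Set against alpha-beta cells, there were 3.47 and 2.89 gamma-delta cells per 100 in the Runx1::Runx1t1 pools and 10.2 and 7.93 in the control pools. Shares are relative, and absolute cell numbers were not measured. Other innate-like T cells were sparser in the same pools. Invariant NKT cells, known by their TRAV11 and TRAJ18 chain, made up 3.27% and 1.63% against 4.15% and 3.998% of barcodes. Alpha-beta cells with Klrb1c (the NK1.1 antigen) and no co-receptor made up 2.10% and 0.898% against 8.03% and 7.32%.

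**Figure D1:**
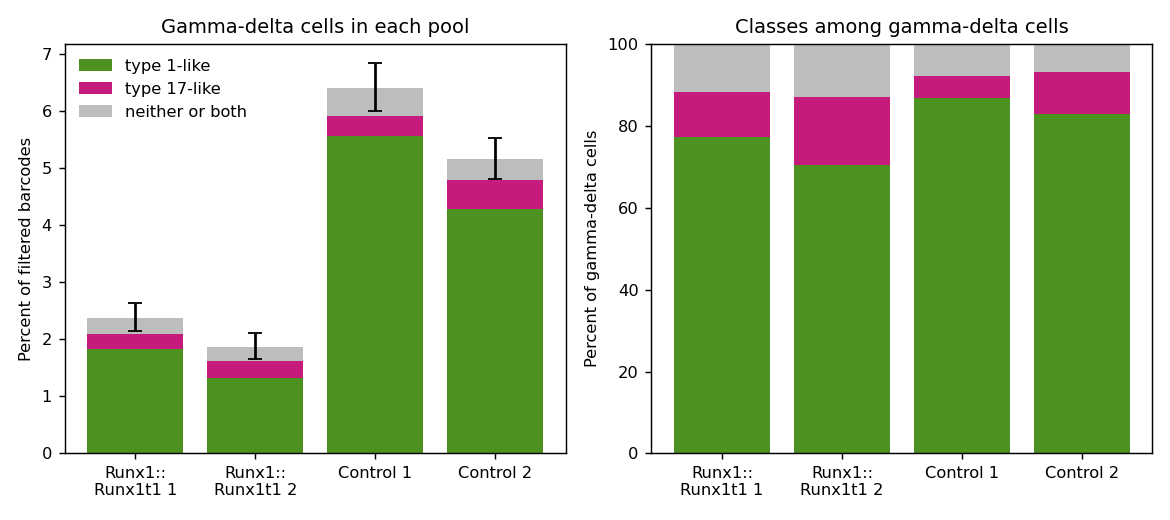
Left, gamma-delta T cells as a percent of filtered barcodes in each pool, stacked by the classes described next, with the 95% Wilson interval of the total; right, the classes as a percent of the pool's gamma-delta cells. The Runx1::Runx1t1 pools lie at 2.38% and 1.87% and the control pools at 6.41% and 5.16%.

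The 2198 cells were sorted into classes by counting how many genes of a type 17 list and of a type 1 list (10 and 11 genes) had a UMI. A cell was type 17-like or type 1-like with at least 2 genes of one list and more of it than of the other. Most cells were type 1-like (1806), 200 were type 17-like, 190 were neither and 2 were tied. The type 17-like cells stood apart, since 194 of the 200 had 4 or more type 17 genes and 1905 of all cells had 0. The edge between type 1-like cells and cells of neither class was gradual, since 75, 176, 240 and 203 cells had 0, 1, 2 and 3 type 1 genes, and 155 type 1-like cells had exactly 2. Median depth was similar in type 17-like and type 1-like cells, at 6792 and 6885.5 UMIs, and lower in the cells of neither class, at 4442.5. Since the lists defined the classes, the levels of their genes are a description. The same rule put 77.2% of alpha-beta cells in the type 1-like class, 0.581% in the type 17-like class and 22.2% in neither. The type 1-like class is thus not particular to gamma-delta cells.

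The type 17-like cells held nearly all of the IL-17 RNA. Il17a, the cytokine itself, was found in 86.0% of them and in 0.443% of type 1-like cells. Its level over the summed type 17-like cells was 1387 to 1864 CPM (UMIs per 1000000 UMIs of the summed cells) in the 4 pools. Sox13, a lineage transcription factor, was found in 73% of them, and Blk, a Src-family kinase, in 96%. The receptor genes Il23r, Il1r1 and Ccr6 were found in 48%, 47% and 58%. Cd163l1, which encodes the scavenger receptor SCART1, was found in 72% of type 17-like and 2.1% of type 1-like cells, and the related 5830411N06Rik (SCART2) in 34.5% of type 17-like cells. These 2 genes ran in opposite directions over the pools. Cd163l1 was at 1586 and 1844 CPM in the type 17-like cells of the Runx1::Runx1t1 pools and 1058 and 1339 in those of the control pools, while 5830411N06Rik was at 140.9 and 94.2 against 487 and 361. Ccr6 followed the second order, at 89.9 and 124 against 228 and 227 CPM.

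The type 1-like cells carried genes of the natural killer program. Xcl1, a chemokine for dendritic cells, was found in 72.4% of them, Klrd1, the CD94 receptor chain, in 78.9%, Ifng in 45.2%, Tbx21 in 49.1% and Eomes in 46.7%. In type 17-like cells the same genes were found in 4%, 4%, 0.5%, 2% and 1%. Granzyme RNA was less widespread, with Gzmb in 19.8% and Gzma in 10.4% of type 1-like cells. Il2rb and Klrk1 did not mark the class, being found in 83.5% and 65% of type 17-like cells and in 96.6% and 57.0% of type 1-like cells. A list of 25 natural killer receptor genes summed to 1710 to 2820 CPM over the pools in type 1-like cells. It summed to 521 to 1548 CPM in alpha-beta cells. In the alpha-beta cells chosen by Klrb1c and no co-receptor it summed to 3949 to 4564 CPM, so these genes were not particular to gamma-delta cells.

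**Figure D2:**
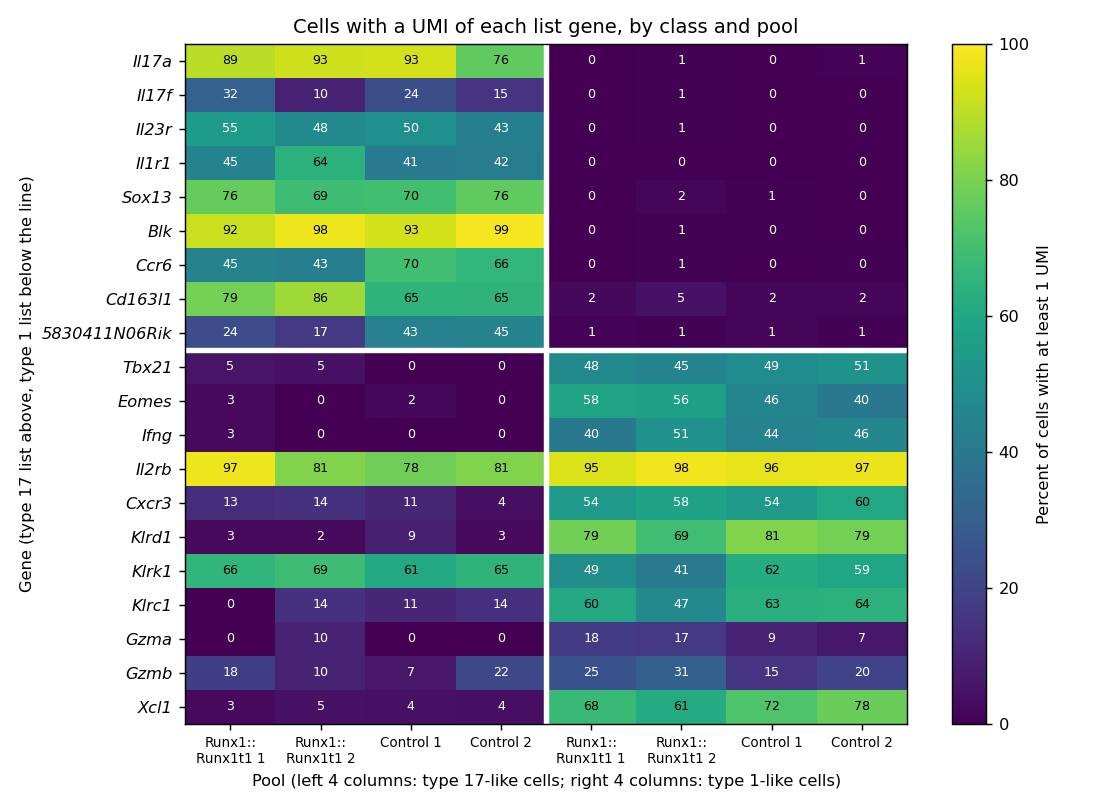
Percent of type 17-like cells (left 4 columns) and type 1-like cells (right 4 columns) of each pool with at least 1 UMI of the genes shown of the type 17 list (top) and the type 1 list (bottom), as colour and as a rounded number. Il17a is found in 86.0% of type 17-like and 0.443% of type 1-like cells over all pools, and Il2rb and Klrk1 are found widely in both classes.

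Genes outside both lists set the classes apart too. Higher in type 17-like cells in every pool were Abi3bp, at 289 against 0.86 CPM over all pools, Actn2, an actin-binding protein, at 428 against 4.16, and Ltb4r1, the leukotriene B4 receptor, at 344 against 2.58. Mmp25, a membrane protease, was at 221 against 0.645 CPM, and Kcnk1, a potassium channel, at 146 against 0.358. Higher in type 1-like cells in every pool were the signaling adaptors Tyrobp, at 361 against 2.44, and Fcer1g, at 397 against 4.28. They also had Klrb1c at 183 against 2.44 CPM, and the killer cell receptors Ncr1 and Klrc2 at 55.8 and 56.8 CPM, both with 0 UMIs in the type 17-like cells. Ly6c2, a surface antigen of memory T cells, was at 2148 against 40.9 CPM. Zbtb16, the innate-like factor PLZF, was found in 60.5% of type 17-like and 3.49% of type 1-like cells, and the cycling marker Mki67 in 20% and 2.55%.

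The cells of neither class had naive-like RNA. Ccr7, the lymph node homing receptor, was found in 78.4% of them, 39% of type 1-like cells and 10% of type 17-like cells. Tcf7, a factor of naive and memory T cells, was found in 93.2%, 82.3% and 65.5%. A list of 12 naive and egress genes summed to 5706 to 8026 CPM over the pools in the cells of neither class, 2873 to 3398 CPM in type 1-like cells and 1559 to 2411 CPM in type 17-like cells. The ranges of the 3 classes did not overlap. A list of 12 genes of immature thymocytes was also highest in the cells of neither class, at 503 to 836 CPM. It summed to 147 to 210 CPM in type 1-like cells and 179 to 251 CPM in type 17-like cells. A Cd8a or Cd8b1 UMI was found in 18.9% of the cells of neither class, 15.7% of type 1-like and 6.5% of type 17-like cells. A Tcrg V segment was found in 66.8%, 79.6% and 97%.

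The mix of classes lay in the same direction in both pools, with more type 17-like and fewer type 1-like cells in the Runx1::Runx1t1 group. Type 17-like cells made up 10.98% and 16.5% of gamma-delta cells in the Runx1::Runx1t1 pools and 5.32% and 10.1% in the control pools. The lowest Runx1::Runx1t1 pool lay close above the highest control pool. The means were 13.8% ± 3.93 and 7.70% ± 3.36 (SD, n = 2 each, exact permutation p = 0.333). Their difference of 6.06 points became 3.28 without Runx1::Runx1t1 pool 2 and 3.68 without control pool 1. With every cell thinned to 2000 UMIs the pools of the groups overlapped, at 9.59% and 14.6% against 4.90% and 10% (exact permutation p = 0.667). Type 1-like cells made up 77.2% and 70.5% against 86.9% and 83.0%, with means of 73.8% ± 4.73 and 84.9% ± 2.79 (n = 2 each, exact permutation p = 0.333). Cells of neither class made up 11.8% and 12.6% against 7.75% and 6.81%.

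As a share of all sorted barcodes no class was larger in the Runx1::Runx1t1 group. Type 17-like cells were 0.261% and 0.309% of barcodes against 0.341% and 0.520%, a ratio of means of 1.51. Type 1-like cells were 1.83% and 1.32% against 5.57% and 4.28%, a ratio of 3.12. The difference between the means was -3.35 points for type 1-like cells, against -3.66 points for all gamma-delta cells.

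Since the receptor libraries read only TRA and TRB, gamma and delta segments were read from the gene expression counts. These values count RNA, including that of unproductive rearrangements, and do not give a receptor sequence. Shown here are the last 60 bases of the V exons that carried the results, from the RefSeq mouse genome (GRCm38) at exons of the GENCODE M21 annotation. The files name GRCm38 as their build. The capitals mark the codon of the conserved cysteine, which the bases of the joined CDR3 follow.
Tcrg-V6, chr13:19190870-19190929 (+): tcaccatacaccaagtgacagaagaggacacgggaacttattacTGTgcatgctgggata
Tcrg-V4, chr13:19185447-19185506 (+): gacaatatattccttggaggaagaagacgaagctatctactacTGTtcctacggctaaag
Trgv2, chr13:19336573-19336632 (-): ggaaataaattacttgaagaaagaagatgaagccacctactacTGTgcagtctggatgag
Tcrg-V1, chr13:19340395-19340454 (+): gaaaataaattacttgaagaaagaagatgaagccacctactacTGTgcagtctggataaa
Trdv4, chr14:54075456-54075515 (+): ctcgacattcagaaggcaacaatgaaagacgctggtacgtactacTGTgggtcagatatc
Trdv5, chr14:54148662-54148721 (-): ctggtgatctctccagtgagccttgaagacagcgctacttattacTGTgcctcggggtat
Trav13-4-dv7, chr14:53757862-53757921 (+): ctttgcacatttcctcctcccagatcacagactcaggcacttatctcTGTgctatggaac

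Sequence likeness limits some of these calls. Over the whole V exon Tcrg-V1 and Trgv2 were 95.4% identical, with 14 differing positions of 307 aligned, so the split of reads between this pair is uncertain. Tcrg-V4 was 69.5% and Tcrg-V6 52.7% identical to Trgv2, so those calls are better separated. Trdv5 lies on the minus strand and its exons overlap those of Trdc by 207 bases, so its counts rest on the strand being read.

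The gamma constant genes are alike as well. Shown are the first 90 bases of the first constant exon, where capitals mark bases that differ from Tcrg-C1.
Tcrg-C1, chr13:19214103-19214192 (+): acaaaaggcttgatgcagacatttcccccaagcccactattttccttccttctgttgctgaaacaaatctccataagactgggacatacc
Tcrg-C2, chr13:19307462-19307551 (-): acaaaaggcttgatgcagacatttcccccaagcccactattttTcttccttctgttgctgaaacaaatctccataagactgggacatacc
Tcrg-C4, chr13:19344558-19344647 (+): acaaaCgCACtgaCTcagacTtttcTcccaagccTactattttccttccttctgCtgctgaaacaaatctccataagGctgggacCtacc
Over the 330 bases of this exon Tcrg-C2 was 97.3% identical to Tcrg-C1, with 9 mismatches, and Tcrg-C4 82.1%, with 59. Counts of Tcrg-C1 and Tcrg-C2 are therefore uncertain against each other, and those of Tcrg-C4 less so.

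A leading gamma segment, the Tcrg V gene with most UMIs in a cell, was found in 1445 cells. It was Trgv2 in 731, Tcrg-V4 in 306, Tcrg-V1 in 218 and Tcrg-V6 in 141, and Tcrg-V3, Tcrg-V5 and Tcrg-V7 led in 21, 20 and 8. The class of a cell went with its segment. Tcrg-V6 led 62.1% of the 182 type 17-like cells with a leading segment and 2.33% of the 1157 type 1-like ones. Trgv2 led 53.8% of the type 1-like cells, Tcrg-V4 23.0% and Tcrg-V1 17.1%. Of the 141 cells led by Tcrg-V6, 113 (80.1%) were type 17-like. By pool the share was 92.6% and 89.2% in the Runx1::Runx1t1 group, 55.6% (20 of 36 cells) in control pool 1 and 85.4% in control pool 2. The class was far less frequent among cells led by Trgv2 (5.75%) and Tcrg-V4 (7.19%).

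The delta chain split the classes as sharply. A leading delta segment was found in 1852 cells, with the Trav15-dv6 genes first (435), then Trav13-4-dv7 (427), Trdv5 (355), Trdv2-2 (217), Trdv1 (214) and Trdv4 (155). Trdv4 led 65.6% of the 195 type 17-like cells and 1.6% of the 1500 type 1-like cells. Trav13-4-dv7 led 27.4% of type 1-like cells and 0.513% of type 17-like cells. Trdv5 led 29.2% of type 17-like, 16.4% of type 1-like and 32.9% of the 155 cells of neither class. Of the cells led by Trdv4, 82.6% were type 17-like, and of those led by Trav13-4-dv7, 96.3% were type 1-like.

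**Figure D3:**
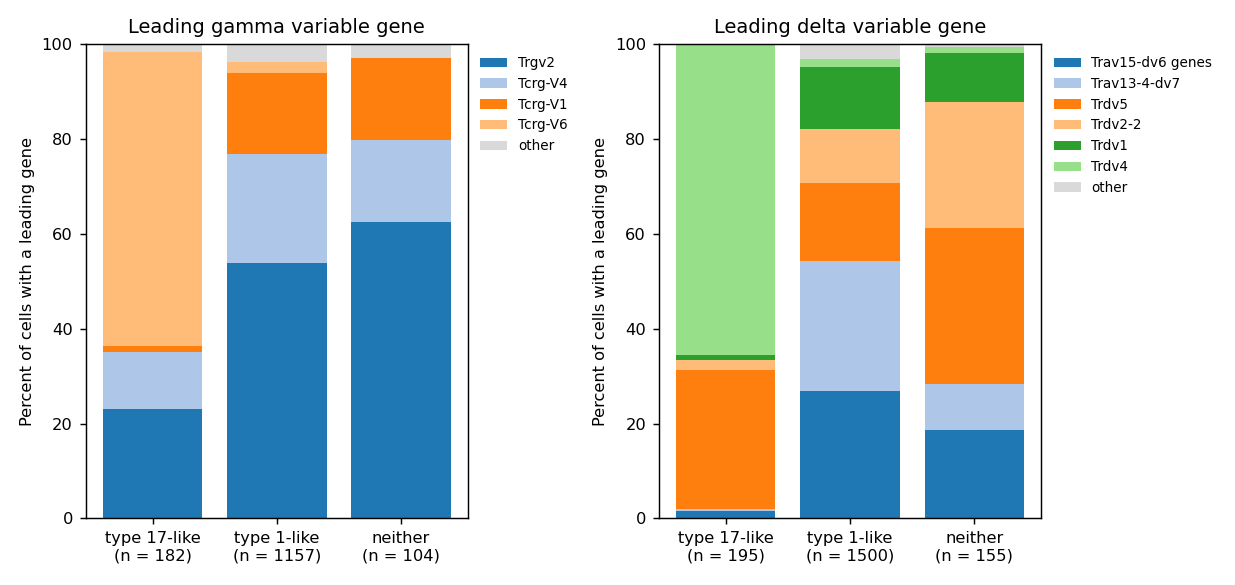
Leading gamma (left) and delta (right) variable genes in type 17-like cells, type 1-like cells and cells of neither class, as a percent of the class's cells with a leading gene. Tcrg-V6 leads 62.1% and Trdv4 65.6% of type 17-like cells, and Trgv2 leads 53.8% of type 1-like cells.

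Tcrg-V6 and Trdv4 occurred together. Of 138 cells led by Tcrg-V6 that also had a leading delta segment, 117 (84.8%) were led by Trdv4, and 113 of these 117 (96.6%) were type 17-like. Trdv4 led 92.6%, 94.6% and 92.3% of them in the other pools and 60% in control pool 1. This pair made up 63.1% of the 179 type 17-like cells with both segments read. Trgv2 with Trdv5 made up 15.6% of them, Tcrg-V4 with Trdv5 10.1% and Trgv2 with Trdv4 4.47%. Tcrg-V6 also kept to its own constant gene, since 81 of 99 cells (81.8%) with a leading constant gene had Tcrg-C1. The pairing was less clear for Trgv2, with Tcrg-C1 in 32.5%, Tcrg-C2 in 30.2% and Tcrg-C4 in 37.3% of 378 cells. It was less clear for Tcrg-V4 too, with Tcrg-C1 in 42.0%, Tcrg-C2 in 24.4% and Tcrg-C4 in 33.6% of 131 cells.

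Shares of the gamma segments were compared between the groups for the 4 segments that led at least 5% of cells. The smallest p that 2 pools against 2 can give is 0.333, so no segment could pass and the test cannot decide. Tcrg-V6 led 10.9% and 23.6% in the Runx1::Runx1t1 pools and 6.50% and 8.44% in the control pools, and Tcrg-V4 18.5% and 13.4% against 21.5% and 24.7%. In each case the groups did not overlap (exact permutation p = 0.333, 0.667 after Benjamini-Hochberg adjustment over the 4 segments). Trgv2 led 54.0% and 42.0% against 51.3% and 50.8%, and Tcrg-V1 12.9% and 15.3% against 17.3% and 13.6%. For these the pools of the groups overlapped (exact permutation p = 1 and 0.667, adjusted 1 and 0.889). The difference of 9.76 points for Tcrg-V6 became 3.42 without Runx1::Runx1t1 pool 2 and 16.1 without pool 1, and that of -7.12 for Tcrg-V4 became -4.54 without Runx1::Runx1t1 pool 2.

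Certain pairs of segments differed more between the pools than single segments did. They were chosen after their values were seen, so no test is given. Tcrg-V6 with Trdv4 was found in 25 of 215 cells with both segments read (11.6%) and 35 of 136 (25.7%) in the Runx1::Runx1t1 pools, against 21 of 477 (4.403%) and 36 of 422 (8.53%) in the control pools. Tcrg-V4 with Trav13-4-dv7 was found in 6 cells (2.79%) and 3 cells (2.21%) of the Runx1::Runx1t1 pools against 51 (10.7%) and 53 (12.6%). Among cells led by Tcrg-V4, this delta segment led in 14.6% and 15.8% against 48.1% and 48.2%. Of the 113 cells with this pair, 111 were type 1-like. Tcrg-V4 with Trdv5 was at 4.19% and 5.15% against 3.98% and 4.74%. Tcrg-V4 with the Trav15-dv6 genes was found in 15 and 6 cells of the Runx1::Runx1t1 pools against 14 and 14, of the same totals, and Trgv2 with Trav13-4-dv7 in 19 and 8 against 56 and 51.

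**Figure D4:**
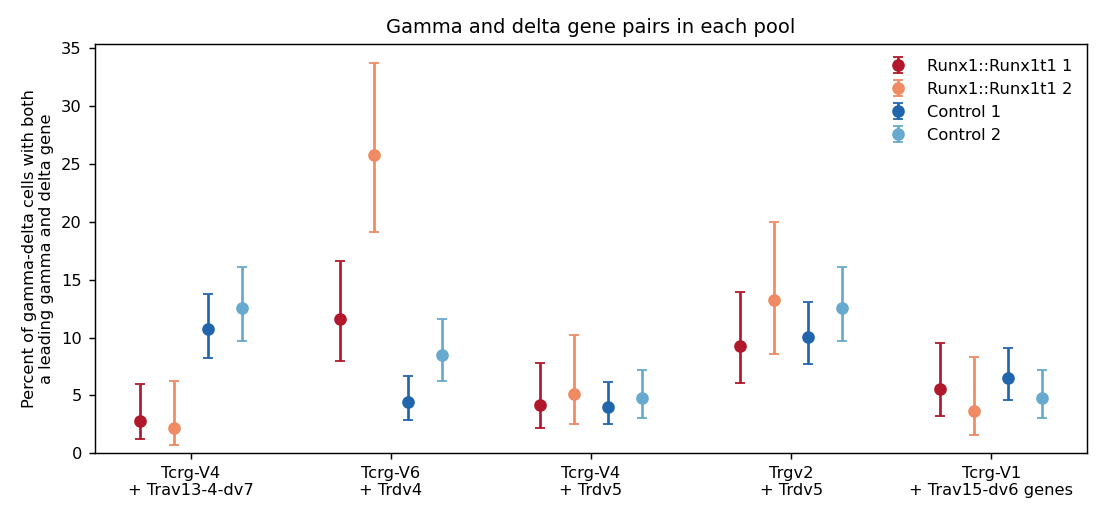
Percent of each pool's gamma-delta cells with both a leading gamma and delta gene that had a given pair, with 95% Wilson intervals. Tcrg-V6 with Trdv4 lies at 11.6% and 25.7% in the Runx1::Runx1t1 pools and 4.403% and 8.53% in the control pools, and Tcrg-V4 with Trav13-4-dv7 at 2.79% and 2.21% against 10.7% and 12.6%.

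Gene levels were compared between the groups on UMIs summed over the gamma-delta cells of each pool, by edgeR's quasi-likelihood test with Benjamini-Hochberg adjustment. Of 10122 genes tested, 58 (0.573%) passed an adjusted p of 0.05, with 48 (0.474%) higher and 10 (0.0988%) lower in the Runx1::Runx1t1 group. An unadjusted p under 0.05 was found in 1162 genes (11.5%), and in 4436 (43.8%) the pools of the groups did not overlap. The count of 58 became 133 without Runx1::Runx1t1 pool 1, 44 without Runx1::Runx1t1 pool 2, 215 without control pool 1 and 356 without control pool 2. Among the higher genes were Mki67 and Top2a of the cell cycle, the inhibitory receptors Lag3 and Ctla4, the granzymes Gzmb and Gzmk, and Ccl3. Among the lower were Klrk1 and the delta segments Trav13-4-dv7 and Trav21-dv12. All lists had been chosen with earlier results of these data known, and all log2 changes below are Runx1::Runx1t1 over control.

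The delta segments Trav13-4-dv7 and Trav21-dv12 were lower. Trav13-4-dv7 was at 177 and 163 CPM in the Runx1::Runx1t1 pools and 317 and 346 CPM in the control pools, with a log2 change of -1.02 (SE 0.11, edgeR adjusted p = 0.00395). Trav21-dv12 was at 7.54 and 14.6 against 30.1 and 30.6 CPM (log2 -1.54, SE 0.24, edgeR adjusted p = 0.0269). The control pools lay close together and above both Runx1::Runx1t1 pools for each gene. A Trdv1 UMI was also less frequent, though only slightly in pool 1. It was found in 11.8% and 6.30% of gamma-delta cells of the Runx1::Runx1t1 pools against 12.3% and 13.4% in the control pools. Not every delta segment of type 1-like cells lay lower. Trdv2-2 was at 133 and 122 against 117 and 92.0 CPM (log2 0.23, edgeR adjusted p = 0.537), and the Trav15-dv6 genes led 33.5% and 31.3% of type 1-like cells against 27.2% and 22.3%. Trdv4 was at 300.2 and 431 against 91.3 and 217 CPM (log2 1.18, edgeR adjusted p = 0.164), and Tcrg-V6 at 117 and 209 against 46.1 and 104 (log2 1.05, edgeR adjusted p = 0.246), so neither passed. Trdc was at 480.5 and 401 against 499 and 494 CPM, a description only, since the rule set its minimum in every cell.

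Of the 10 type 17 genes, 0 passed edgeR's test, with 8 estimates above 0, a median log2 change of 0.73 against -0.005 over all genes, 6 genes at an unadjusted p under 0.05 and 0 by DESeq2. Il17a was at 232 and 239 CPM against 85.6 and 218 CPM (log2 0.57, edgeR adjusted p = 0.553), and Cd163l1 at 209 and 320.3 against 64.2 and 158 (log2 1.19, edgeR adjusted p = 0.177). For Il17a the gap to control pool 2 was small beside the gap between the control pools. In a wider type 17 list of 24 tested genes, 21 estimates lay above 0, with a median log2 change of 0.57 and 12 higher and 2 lower at an unadjusted p under 0.05. Of these, Icos, a costimulatory receptor, and Rora, an orphan nuclear receptor, passed, both higher. Icos was at 59.6 and 85.7 against 30.8 and 27.8 CPM (log2 1.24, SE 0.16, edgeR adjusted p = 0.0149), and Rora at 91.6 and 115 against 38.5 and 53.8 CPM (log2 1.10, SE 0.17, edgeR adjusted p = 0.024). Both were also higher within the type 17-like cells, Rora at 456 and 501 against 294 and 308 CPM and Icos at 228 and 285 against 133 and 103 CPM.

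Of the 11 type 1 genes, 1 rose and 1 fell, with a median log2 change of -0.29. Gzmb, the apoptosis-inducing granzyme B, was at 96.2 and 83.5 against 41.9 and 55.1 CPM (log2 0.84, SE 0.15, edgeR adjusted p = 0.0439). Klrk1, which encodes the activating receptor NKG2D, was at 206 and 189 against 326 and 307 CPM (log2 -0.73, SE 0.10, edgeR adjusted p = 0.0175). Tbx21 was at 78.8 and 67.6 against 90.7 and 102 CPM (log2 -0.45, edgeR adjusted p = 0.176), and Ifng at 115 and 136 against 132 and 137. Gzma, another granzyme, was at 236 and 159 against 89.3 and 32.3 CPM (log2 1.65, edgeR adjusted p = 0.076). Gzmb thus passed and Gzma, with the larger estimate and a wider spread between pools, did not.

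Among 15 tested granule and chemokine genes, Gzmk, Ccl3 and Gzmb passed, all higher, with a median log2 change of -0.02. Gzmk, a granzyme of memory T cells, was at 27.9 and 94.1 against 4.76 and 2.66 CPM (log2 3.92, SE 0.51, edgeR adjusted p = 0.0149). Ccl3, a chemokine for myeloid cells, was at 150.5 and 148 against 81.5 and 58.2 CPM (log2 1.04, SE 0.14, edgeR adjusted p = 0.0175). For Gzmk pool 2 of the Runx1::Runx1t1 group stood far above pool 1, and both stood above the controls.

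Among 10 tested inhibitory receptor genes, Lag3 and Ctla4 passed, both higher, with a median log2 change of 0.87. Lag3, which binds MHC class II, was at 19.6 and 85.7 against 7.29 and 6.08 CPM (log2 2.87, SE 0.53, edgeR adjusted p = 0.0461), and DESeq2 did not call it. Ctla4, which competes with CD28 for its ligands, was at 49.4 and 100.3 against 26.3 and 19.8 CPM (log2 1.62, SE 0.27, edgeR adjusted p = 0.0295). Pdcd1, which encodes PD-1, was at 17.7 and 41.5 against 10.9 and 14.3 CPM and did not pass (log2 1.16, edgeR adjusted p = 0.177). Of the 5 marker genes that the study had chosen on these samples, which makes them no independent evidence of direction, Lag3 and Osgin1 rose. Osgin1 was at 23.4 and 23.0 against 6.66 and 9.69 CPM (log2 1.46, edgeR adjusted p = 0.0284), and Adgrg1, an adhesion receptor, at 6.41 and 10.2 against 7.45 and 9.31 CPM (log2 -0.08, edgeR adjusted p = 0.959).

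Of 14 tested cell cycle genes, Mki67 and Top2a passed, both higher, with 9 higher and 0 lower at an unadjusted p under 0.05 and a median log2 change of 0.67. Mki67, a protein of dividing cells, was at 50.2 and 62.7 against 15.2 and 18.2 CPM (log2 1.70, SE 0.17, edgeR adjusted p = 0.00292). Top2a, the topoisomerase that untangles replicated DNA, was at 44.5 and 81.7 against 15.5 and 25.8 CPM (log2 1.55, SE 0.28, edgeR adjusted p = 0.0458). The gap between the groups in Mki67 was wider than the spread within either.

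Of 12 naive and egress genes, Ccr7 and Igfbp4, a binding protein of insulin-like growth factors, passed, both higher, with a median log2 change of -0.02. Ccr7 was at 340.2 and 305 against 181 and 125 CPM (log2 1.02, SE 0.15, edgeR adjusted p = 0.0229). It was high in the cells of neither class, at 1100.4 and 1273 CPM in the Runx1::Runx1t1 pools and 513 and 619 in the control pools. Of 18 tested homing genes 0 passed edgeR's test, with 4 at an unadjusted p under 0.05 and 0 by DESeq2. Of 17 tested interferon-induced genes 0 passed edgeR's test, with a median log2 change of 0.08, 4 at an unadjusted p under 0.05 and 0 by DESeq2.

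Of 23 tested receptor genes shared with natural killer cells, Klrk1 passed as lower, with 19 estimates below 0, a median log2 change of -0.54, and 2 higher and 11 lower at an unadjusted p under 0.05. Of 20 tested genes of the receptor complex and its signaling 0 passed edgeR's test, with a median log2 change of 0.14, 7 at an unadjusted p under 0.05 and 1 (Lat, an adaptor) by DESeq2. Of 8 tested genes of immature thymocytes 0 passed edgeR's test, with 2 at an unadjusted p under 0.05 and 0 by DESeq2. Icos was the gene that passed among 8 innate-like (Zbtb16) genes, with a median log2 change of 0.08.

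Ckb and Atf3 were among the genes with the smallest p-values, and Atf3 alone passed of 11 tested immediate early genes. Ckb, the brain-type creatine kinase, was at 61.9 and 66.3 against 19.5 and 22.6 CPM (log2 1.55, SE 0.14, edgeR adjusted p = 0.00167). Atf3, a stress-induced transcription factor, was at 118 and 132 against 43.1 and 34.8 CPM (log2 1.62, SE 0.12, edgeR adjusted p = 0.000414). Clec2d, a lectin that binds an NKR-P1 receptor, was at 46.4 and 54.8 against 91.5 and 86.9 CPM (log2 -0.88, SE 0.11, edgeR adjusted p = 0.0149). In each of the 3 genes the pools of a group lay close together. Spp1, which encodes osteopontin, was at 8.67 and 39.8 against 0.634 and 0.38 CPM (log2 5.37, edgeR adjusted p = 0.0202). Coch was at 3.77 and 31.8 against 0 and 0 CPM, at least 64.3-fold higher against 3 UMIs over the control group (edgeR adjusted p = 0.0451), with most of it in 1 pool. Of the lower genes, Cym, which encodes chymosin, was at 7.92 and 3.98 against 20.6 and 17.5 CPM (log2 -1.70, edgeR adjusted p = 0.0328), and Tsc22d1, a leucine zipper protein, at 12.1 and 10.2 against 25.4 and 27.9 CPM (log2 -1.31, edgeR adjusted p = 0.0253). Ifitm1 and Wfdc17 were lower too, with control over Runx1::Runx1t1 ratios of 29.3 (95% counting interval 7.96 to 244) and 35.7 (6.23 to 1426).

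Among the genes with the largest changes were some of other blood lineages, and a few barcodes held most of their UMIs. Cpa3, the carboxypeptidase of mast cells and their progenitors, was at 279 and 146 CPM against 0 and 0 CPM, at least 840.2-fold higher against 3 UMIs over the control group (edgeR adjusted p = 0.000135). Slc45a3 was at 9.43 and 3.98 against 0 and 0 CPM, at least 26.7-fold higher (edgeR adjusted p = 0.024). Il1rl1, the IL-33 receptor, was at 6.79 and 3.53 against 0 and 0 CPM, at least 20.4-fold higher (edgeR adjusted p = 0.0258). In all, 6 gamma-delta barcodes, 3 in each Runx1::Runx1t1 pool, held 965 of the 1071 Cpa3 UMIs (90.1%), 33 of 34 of Slc45a3 and 18 of 26 of Il1rl1. They also held 47 of 58 UMIs of Slc7a8, 36 of 49 of Pdzk1ip1, 61 of 99 of Cd63 and 234 of 1066 of Atf3, and 2 of the 6 were marked as doublets. A Cpa3 UMI was nevertheless found in 14.2% and 18.5% of the gamma-delta cells of the Runx1::Runx1t1 pools and in 0 of 1598 control cells, which allows a share of up to 0.188%. Alpha-beta cells showed the same order, at 58.3 and 71.8 against 0.241 and 0.396 CPM. Over all filtered barcodes, 1894 of 14554 and 2104 of 13583 had a Cpa3 UMI, against 14 of 13481 and 61 of 14232. A Cpa3 UMI was thus not particular to gamma-delta cells.

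Genes of other lineages were also higher in the control group. S100a8, a neutrophil protein, was at 0.377 and 0.442 against 12.7 and 4.75 CPM (log2 -4.39, edgeR adjusted p = 0.0477), and Hbb-bs, a globin of red cells, at 0.754 and 0.884 against 6.50 and 6.27 (log2 -2.98, edgeR adjusted p = 0.0333). The neutrophil list summed to 10.9 and 12.8 CPM against 139.5 and 16.2, and 3 barcodes of control pool 1 held 601 of that pool's 880 UMIs. The B cell list summed to 312 and 129 against 129 and 125 CPM, with 544 of the 826 UMIs of Runx1::Runx1t1 pool 1 in 1 barcode. The progenitor and mast list summed to 316 and 172 against 15.1 and 14.4 CPM, and the NK and ILC list to 490.3 and 305 against 658 and 550.1 CPM. In all, 20 gamma-delta barcodes had 10 or more UMIs of another lineage's list. Without them, a choice made after seeing the data, 31 genes passed, all among the 58. Mki67, Gzmk, Ctla4, Icos, Rora, Ccr7, Ckb, Klrk1, Clec2d, Trav13-4-dv7 and Trav21-dv12 still passed, as did Cpa3 (edgeR adjusted p = 0.000528). Atf3 no longer passed (log2 1.06, edgeR adjusted p = 0.0638), nor did Lag3 (0.0519), Gzmb (0.0611), Ccl3 (0.0519), Top2a (0.0611), Igfbp4 (0.119), Coch (0.0519) and the lower genes Tsc22d1 (0.162), Ifitm1 (0.119) and S100a8 (0.0569). Slc45a3, Slc7a8, Pdzk1ip1, Cd63, Il1rl1 and Wfdc17 were then too low to be tested.

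Co-receptor RNA also moved with 1 pool. A Cd4 UMI was found in 1.73% and 11.8% of the gamma-delta cells of the Runx1::Runx1t1 pools and in 2.43% and 0.954% of those of the control pools, and a Cd8a UMI in 10.98% and 16.9% against 7.99% and 7.36%. The alpha-beta list summed to 777 and 1034 against 777 and 717 CPM. Without cells with a Cd4, Cd8a or Cd8b1 UMI, also chosen after seeing the data, 20 genes passed, 17 of them among the 58. Trav13-4-dv7 (log2 -0.91), Trav21-dv12 (-1.68), Clec2d (-1.05), Ckb (1.73), Atf3 (2.10), Ccr7 (1.21), Icos (1.31) and Ctla4 (1.25) passed again. Gzmk fell to a log2 change of 1.72 (edgeR adjusted p = 0.322), Lag3 to 1.31 (0.146), Mki67 to 1.53 (0.0903), Top2a stood at 1.56 (0.280), Osgin1 fell to 0.99 (0.438), Gzmb to 0.65 (0.394) and Klrk1 to -0.61 (0.0609), and Ccl3 turned to -0.28 (0.645). The part of these barcodes in the group differences was not tested beyond leaving them out.

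**Figure D5:**
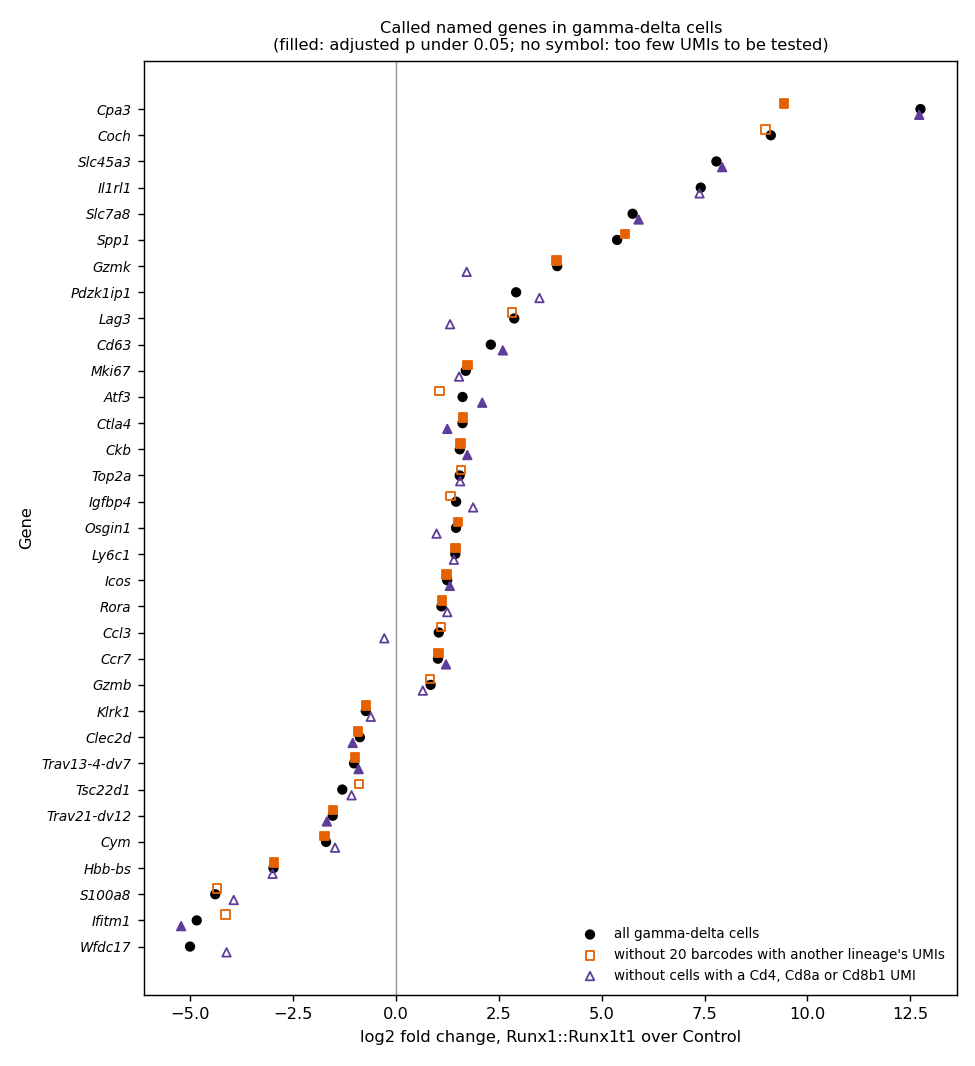
Log2 fold change, Runx1::Runx1t1 over control, of the genes named for the group comparison, in all gamma-delta cells (circles), without the 20 barcodes (squares) and without cells with a co-receptor UMI (triangles), where filled symbols have an edgeR adjusted p under 0.05 and positions of genes with 0 UMIs in the control group depend on the prior count. Mki67 lies at 1.70 and Klrk1 at -0.73 in all gamma-delta cells, and Gzmk drops from 3.92 to 1.72 without the cells with a co-receptor UMI.

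Within type 1-like cells alone, where the mix of classes is held, more genes passed. Of 9679 genes, 128 (1.32%) passed edgeR's test, with 106 (1.1%) higher and 22 (0.227%) lower. In 4062 genes (42.0%) the pools of the groups did not overlap. The count rested on the pools, with 37 genes without Runx1::Runx1t1 pool 1, 2 without Runx1::Runx1t1 pool 2, 181 without control pool 1 and 214 without control pool 2. Of 13 tested cell cycle genes, 6 were higher (Mki67, Top2a, Birc5, Ccna2, Cdk1 and Hmgb2) and none of the others passed. Mki67 was at 50.3 and 50.5 against 11.5 and 7.87 CPM (log2 2.31, SE 0.19, edgeR adjusted p = 8.01e-05). A Mki67 UMI was found in only 2.996% and 6.70% against 2.13% and 1.64% of type 1-like cells, so few cells carried the level. Hmgb2, a chromatin protein of dividing cells, was at 425 and 499 against 328 and 282 CPM (log2 0.55, SE 0.10, edgeR adjusted p = 0.0168).

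Certain inhibitory receptor and granzyme genes were higher within the class as well. Of 10 inhibitory receptor genes, 5 passed (Pdcd1, Lag3, Ctla4, Tigit and Havcr2), each higher, and DESeq2 called Pdcd1 and Havcr2 of them. Pdcd1 was at 15.5 and 42.3 against 8.82 and 6.30 CPM (log2 1.82, SE 0.36, edgeR adjusted p = 0.0231), and Tigit at 59.7 and 167 against 35.3 and 35.8 CPM (log2 1.59, SE 0.30, edgeR adjusted p = 0.0168). Gzma was at 294 and 196 against 99.3 and 38.2 CPM (log2 1.78, SE 0.29, edgeR adjusted p = 0.00863), Gzmb at 114 and 107 against 45.9 and 58.7 (log2 1.04, SE 0.14, edgeR adjusted p = 0.00263), and Ccl3 at 187 and 197 against 90.5 and 68.4 (log2 1.22, SE 0.12, edgeR adjusted p = 0.000493). Pool 2 of the Runx1::Runx1t1 group was the higher one for every inhibitory receptor named. The alpha-beta list moved with that pool, at 746 and 1052 against 764 and 684 CPM in type 1-like cells, and Cd4 itself was higher, at 8.92 and 63.4 against 6.17 and 2.70 CPM (edgeR adjusted p = 0.0392). Without cells with a co-receptor UMI none of the inhibitory receptors passed in the class, with Pdcd1 at a log2 change of 0.34 (edgeR adjusted p = 0.856), Tigit at 0.54 (0.273), Ctla4 at 0.97 (0.138), Lag3 at 1.30 (0.0541) and Havcr2 too low to be tested. Ccl3 was then at -0.05 (0.967) and Gzma at 1.51 (0.0841), while Mki67 (2.23) and Gzmb (0.91) passed again. Klrk1 fell (log2 -0.65, SE 0.10, edgeR adjusted p = 0.00795), as did Klrb1c, at 149.8 and 106 against 207 and 197 CPM (log2 -0.70, SE 0.14, edgeR adjusted p = 0.0259). Trav13-4-dv7 fell within the class too, at 210.4 and 207 against 338 and 399.8 CPM (log2 -0.87, SE 0.11, edgeR adjusted p = 0.00258).

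Whether the group difference in gamma-delta cells was that of alpha-beta cells was tested as an interaction, with the pool as a block. Alpha-beta cells were those with a TRA and TRB contig pair and no Trdc UMI. Of 13789 genes, 54 (0.392%) passed edgeR's test, with 22 (0.16%) having the higher change in gamma-delta cells and 32 (0.232%) the lower, and 1037 (7.52%) had an unadjusted p under 0.05. The count became 411 and 198 without Runx1::Runx1t1 pool 1 and pool 2, and 138 and 148 without control pool 1 and pool 2. Each difference given here is the log2 change in gamma-delta cells minus that in alpha-beta cells.

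Of 25 tested natural killer receptor genes, 8 passed the test of the difference and 17 did not. The 8 (Fcer1g, Tyrobp, Klrb1c, Klrk1, Klrc1, Klrc2, Klra7 and Ncr1) all had the higher change in gamma-delta cells, and the median difference over the list was 0.81. Tyrobp was at 267 and 149.8 CPM against 383 and 299.9 in gamma-delta cells and at 35.3 and 18.8 against 133 and 108 in alpha-beta cells (difference 1.44, edgeR adjusted p = 3.39e-06). Klrk1, lower in both sets, was at 87.1 and 61.6 against 229 and 232 CPM in alpha-beta cells (difference 0.95, edgeR adjusted p = 0.00127). Klrb1c in alpha-beta cells was at 40.2 and 17.1 against 105 and 102 CPM (difference 1.07, edgeR adjusted p = 0.00534). Xcl1 was at 792 and 705 against 802 and 1075 CPM in gamma-delta cells and at 325 and 288 against 534 and 721 in alpha-beta cells (difference 0.69, edgeR adjusted p = 0.000229). The alpha-beta cells without co-receptor and with Klrb1c made up 2.10% and 0.898% of barcodes against 8.03% and 7.32%, and their part in these differences was not tested.

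Pdcd1, Gzmb, Ccl5 and Eomes had the lower change in gamma-delta cells. Pdcd1 was at 36.0 and 93.7 against 10.6 and 6.03 CPM in alpha-beta cells (difference -1.71, edgeR adjusted p = 0.0217), and Gzmb at 122 and 200.4 against 25.5 and 49.9 CPM (difference -1.21, edgeR adjusted p = 0.0411). Ccl5, a chemokine of effector T cells, was at 8408 and 13741 against 4959 and 4895 CPM in alpha-beta cells and at 6749 and 7011 against 7360 and 6372 in gamma-delta cells (difference -1.13, edgeR adjusted p = 0.00181). Eomes was at 107 and 135 against 56.2 and 49.0 CPM in alpha-beta cells (difference -0.72, edgeR adjusted p = 0.0179). Of 16 granule and chemokine genes, 1 (Xcl1) had the higher and 4 (Prf1, Ccl5, Ccl4 and Gzmb) the lower change in gamma-delta cells, and of these DESeq2 called Xcl1 alone. Trav13-4-dv7, which alpha-beta cells use as a Trav segment, differed by -0.52 (edgeR adjusted p = 0.0394), a call lost under 6 of 12 alternatives, DESeq2 among them (highest adjusted p = 0.838).

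Ckb and Ly6c1, a surface antigen of the Ly6 family, rose in gamma-delta cells, while their alpha-beta values lay lower in the Runx1::Runx1t1 pools than in the control pools. Ckb was at 19.3 and 14.6 against 22.5 and 19.4 CPM in alpha-beta cells (difference 1.91, edgeR adjusted p = 0.000685), and Ly6c1 at 19.0 and 19.1 against 23.3 and 22.7 CPM (difference 1.76, edgeR adjusted p = 0.00232). The rise of Ly6c1 within gamma-delta cells was the less firm. It lost its call under 7 of 13 alternatives, DESeq2 among them, with log2 changes of 1.10 to 1.69, while Ckb kept its call under all 13. Ccr7 rose more in gamma-delta cells, with 455 and 494 against 370.2 and 316 CPM in alpha-beta cells (difference 0.61, edgeR adjusted p = 0.0217). Of the 10 type 17 genes 0 passed edgeR's test of the difference, with 2 at an unadjusted p under 0.05 and 1 by DESeq2.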

How the data were processed

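T cells of 4 marrow pools were profiled by droplet 5' single-cell RNA sequencing, each with a receptor library, 8 libraries in all. Per the labels, the authors aligned reads with Cell Ranger 6.1.2 to GRCm38 (annotation release not given in the sources used here) and deposited UMI counts of 32285 genes per barcode, not normalized, with tables of TRA and TRB contigs. The counts were summed over the gamma-delta cells of each pool and tested with edgeR 4.0.16 (R 4.3.3, filterByExpr, TMM, quasi-likelihood), at a Benjamini-Hochberg adjusted p under 0.05. Shares were compared by exact permutation over pools. CPM are UMIs per 1000000 UMIs of the summed cells. Levels are UMI counts from the 5' end and are compared between groups, not between genes.

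The members and all gene lists were chosen with earlier results of these data known. Named were all members of the type 17, type 1 and study marker lists, receptor genes with at least 20 UMIs, the 10 called genes with the largest change in each direction (at least 30 UMIs, pools of the groups not overlapping), up to 4 members of each other list, the 5 largest differences from alpha-beta cells in each direction, and the 10 genes outside the lists with the largest ratio between classes in each direction (at least 50 UMIs). Pairs of segments, and genes named beyond this rule, were chosen after their values were seen.

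Doublets were kept, and removed as an alternative. They were marked with Scrublet (scanpy 1.11.5), whose own threshold was used in Runx1::Runx1t1 pool 2 (4.22%) and the highest 5% of scores elsewhere. The scripts were tested on simulated data. Alternatives were DESeq2 1.42.0, its size factors, no filter on low counts, a replicate block, each pool left out, other Trdc minimums, stricter barcode filters, thinning to 2000 UMIs, equal cell numbers and 3 genes per class. Some of the genes that the rule for named genes picks are not reported here.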

Additional observations from a re-analysis of the deposited data

Results flagged for a closer look

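The group difference in gamma-delta cells differed from that in alpha-beta cells of the same pools in 54 genes, by edgeR's interaction test at an adjusted p under 0.05. Values are the log2 change in gamma-delta cells minus that in alpha-beta cells.

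Higher in gamma-delta cells were Ckb (1.91), Ly6c1 (1.76), Fcer1g (1.55), Ncr1 (1.55), Tyrobp (1.44), Trdv2-2 (1.06), Klrk1 (0.95), Xcl1 (0.69) and Klrc1 (0.53). Lower were Hbb-bs (-2.99), Trbv2 (-2.14), Pdcd1 (-1.71), Lilr4b, an inhibitory receptor of the Ig family (-1.39), Chn2, a Rac regulator (-1.28), Gzmb (-1.21), S100a4, a calcium-binding protein of memory T cells (-1.07), Eomes (-0.72) and Trav13-4-dv7 (-0.52). The calls of Hbb-bs, Trbv2 and Gzmb were lost under 5, 6 and 4 of 12 alternatives, DESeq2 among them for each. Those of Trav13-4-dv7, S100a4 and Chn2 were lost under 6, 2 and 2, again with DESeq2 among them. Ncr1, Ly6c1, Trdv2-2, Klrc1 and Pdcd1 lost the call with a Trdc minimum of 3, and Eomes with equal cell numbers. Ckb, Fcer1g, Tyrobp, Klrk1, Xcl1 and Lilr4b kept it under all 12. Trbv2 is a beta chain segment, and the alpha-beta cells were chosen by a TRB contig. Trdv2-2 is a delta segment, and the alpha-beta cells were chosen to have no Trdc UMI. A Trdv2-2 UMI was found in 1.41% of them, and Trdv2-2 did not pass within gamma-delta cells. Lilr4b was at 39.2 and 53.9 CPM in the gamma-delta cells of the Runx1::Runx1t1 pools and 56.0 and 59.1 in the control pools, and at 37.4 and 51.8 against 17.8 and 25.1 CPM in alpha-beta cells (edgeR adjusted p = 0.000685).

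With 2 pools per group, no group was large enough to be screened for a pool standing apart.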

How the results depend on the processing

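The gamma-delta share stayed lower in the Runx1::Runx1t1 group under every alternative run, by 1.26 points (thinned to 2000 UMIs) to 5.70 points (Trdc minimum of 1 UMI), and by 3.03 to 4.29 points with a pool left out. The type 17-like difference ranged from 3.28 to 8.83 points and the type 1-like difference from -14.5 to -7.78 with a pool left out. The Tcrg-V1 difference turned to 0.912 with a Trdc minimum of 3 and to 1.82 with 2 UMIs for a leading segment, and ranged from -3.23 to 0.515 with a pool left out, turning without control pool 1. The Trgv2 difference ranged from -9.01 to 2.99, turning without Runx1::Runx1t1 pool 2. The cause of these turns was not tested.

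The count of 58 genes in gamma-delta cells became 514 without a filter on low counts (60.9% of them higher, against 82.8%), 28 without doublets, 18 with equal cell numbers, 31 without the 20 barcodes of other lineages, 20 without cells with a co-receptor UMI, and 44 to 356 with a pool left out. DESeq2 gave 59, of which 44 were among the 58. The count of 128 in type 1-like cells became 55 by DESeq2, 409 without the filter, 77 with a Trdc minimum of 3, 79 with equal cell numbers, 70 without cells with a co-receptor UMI, 72 with 3 genes per class, and 2 to 214 with a pool left out. The count of 54 differences became 265 without the filter and 138 to 411 with a pool left out, and the share of them higher in gamma-delta cells was 40.7%, against 52.6% by DESeq2 and 50% with equal cell numbers. A fit that leaves out a pool takes the lone pool to vary like the pools of the other group. The causes were not tested.

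Cpa3, Ckb, Ccr7, Clec2d and Trav13-4-dv7 passed in gamma-delta cells under all 13 alternatives run. Of the named genes, Ccr6 ranged from -0.80 (without Runx1::Runx1t1 pool 2) to 0.31, also turning to 0.09 without Runx1::Runx1t1 pool 1, and Adgrg1 from -0.41 to 0.21 with a pool left out. Adgrg1 was at 0.47 without doublets, 1.17 with equal cell numbers and 0.18 without the 20 barcodes, and Ccl3 at -0.28 without cells with a co-receptor UMI.

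The replicate block used the pool numbers, which the labels share between groups without saying that they mark a litter or day. Deviations of same-numbered pools correlated at 0.400 in gamma-delta and 0.343 in type 1-like cells, over 2 pairs. With the block 393 genes passed in gamma-delta cells and 388 in type 1-like cells. It left the differences of shares as they were, and the difference from alpha-beta cells already had the pool as a block.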

Other observations

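Type 17-like cells were not of a single receptor kind. Beside the Tcrg-V6 and Trdv4 pair, 28 of the 139 cells with Trgv2 and Trdv5 were type 17-like, and so were 57 of the 355 cells led by Trdv5 (16.1%). The Tcrg-V6 and Trdv4 pair made up 69.4% and 80.5% of type 17-like cells with both segments read in the Runx1::Runx1t1 pools and 52.6% and 54.7% in the control pools. Cells of neither class were led by Trgv2 in 62.5% of 104 cells, and by Trdv5 and Trdv2-2 in 32.9% and 26.5% of 155. Trdv4 led 10.7% and 20.9% of cells with a leading delta segment in the Runx1::Runx1t1 pools and 4.496% and 7.8% in the control pools, and Trav13-4-dv7 led 15.7% and 11.4% against 24.8% and 28.3%. These values were picked after they were seen and were not tested.

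The progenitor and mast list, mostly Cpa3, summed to 860.4 and 428 CPM in the type 17-like cells of the Runx1::Runx1t1 pools and 2.88 and 3.42 CPM in those of the control pools. In type 1-like cells it summed to 255 and 131 against 16.2 and 16.6 CPM. These sums rest on few cells, since 6 barcodes held 90.1% of the Cpa3 UMIs of all gamma-delta cells. A Cpa3 UMI was found in 7 of 38 (18.4%) and 11 of 42 (26.2%) type 17-like cells of the Runx1::Runx1t1 pools. Over all filtered barcodes of these pools it was found in 1894 of 14554 and 2104 of 13583. In the type 1-like cells of the same pools it was found in 13.9% and 16.8%.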
